A study of Mus musculus with 2 samples.

Results

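Rab genes encode small GTPases of the Ras superfamily that label the membranes of a cell and direct vesicles between them. The members were the protein-coding genes whose GENCODE M21 symbol is Rab followed by a number, at most 1 further letter and at most 1 further digit. Effectors and regulators named after a Rab, such as Rabgap1 or Rab11fip1, fall outside this rule. It gave 59 genes among 55421 genes of the table, 21976 of them protein coding. The RNA came from Ago1 knockout cells in 2 libraries, called KO1 and KO2, of a mouse embryonic stem (ES) cell culture on gelatin with serum and leukaemia inhibitory factor (LIF). The labels describe a 129/Ola background, polyadenylated RNA and a reverse-stranded protocol, and the design names the E14 line. Both libraries carry the same genotype, so nothing here compares knockout with wild-type cells, and the labels do not say whether KO1 and KO2 are separate clones or cultures. Technical and biological spread between them therefore cannot be told apart.

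KO1 held 57048330 counts and KO2 54408708. Ago1, the targeted gene, still had 1497 counts (26.4 CPM, counts per 1000000 scaled counts) in KO1 and 452 counts (8.27 CPM) in KO2. A count per gene does not show which part of the transcript was read, so it cannot tell whether the deleted part was read. All 7 ES cell markers listed, Pou5f1, Nanog and Sox2 among them, were at or above 1 CPM in both libraries. Of 6 fibroblast markers 1, Thy1, was detected by that measure and Lum and Postn had 0 counts, the list summing to 21.2 CPM in KO1 and 25.3 CPM in KO2. None of 6 skeletal muscle markers was, their summed level being 9.21 CPM in KO1 and 1.41 CPM in KO2. Acta1, Tnnt3, Ckm, Myh4 and Myl1 were above 1 CPM in KO1 but not in KO2, and Tnnc2 was below it in both. Acta1, for one, had 2.08 CPM in KO1 and 0.256 CPM in KO2. The part of such cells in the Rab values was not tested, and in bulk RNA fewer cells of a type and less RNA per cell cannot be told apart.

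A Rab protein binds a membrane and its effectors while loaded with GTP, and is drawn off the membrane after GTP has been cleaved to GDP. Exchange factors load the GTP, GTPase-activating proteins speed its cleavage, and GDP dissociation inhibitors (GDI) carry the GDP form through the cytosol. The membrane anchor is a pair of geranylgeranyl groups, in some members a lone prenyl group, joined to cysteines at the very end of the protein mostly by Rab geranylgeranyl transferase and an escort protein. Each Rab marks its own set of compartments.

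The coding ends of the members differ in the number and spacing of these cysteines, and they are shown here because the anchor is the feature all Rab proteins need. Each line gives the last 10 codons and the stop codon, 5′ to 3′, read from the GENCODE M21 transcript, with the cysteine codons among the last 5 codons in capitals.
Rab1a: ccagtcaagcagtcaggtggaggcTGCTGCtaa
Rab7: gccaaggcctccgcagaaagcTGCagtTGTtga
Rab14: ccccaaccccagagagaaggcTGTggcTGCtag
Rab5a: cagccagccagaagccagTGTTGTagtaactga
Rab5b: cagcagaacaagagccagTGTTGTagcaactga
Rab11a: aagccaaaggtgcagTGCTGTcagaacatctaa
Rab11b: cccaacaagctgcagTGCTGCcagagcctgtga
Rab25: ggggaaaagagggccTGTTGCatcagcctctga
Rab8a: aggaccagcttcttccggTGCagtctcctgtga
Rab8b: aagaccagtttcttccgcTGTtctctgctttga
Rab13: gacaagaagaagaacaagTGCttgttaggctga
Rab28: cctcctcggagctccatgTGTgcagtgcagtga
Rab23: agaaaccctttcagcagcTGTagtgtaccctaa
Rab1a ends in 2 adjacent cysteine codons, an ending found in 15 of the 59 members. Rab7 and Rab14 show the ending of 20 members, in which another codon parts the cysteine codons. The Rab5 and Rab11 lines show the 15 members whose adjacent cysteine codons are followed by 1 to 3 other codons, and the last 5 lines the 9 members with a lone cysteine codon at the fourth place from the end. All 59 members had at least 1 cysteine codon within the last 5 codons.

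Of the 59 Rab genes, 44 (74.6%) were at or above 1 CPM in both libraries, the level called detected here, against 12148 of 21976 protein-coding genes of the table (55.3%). The Rab genes took 140941 counts (0.247% of the library) in KO1 and 123733 counts (0.227%) in KO2. Levels of different genes are compared as RPKM, the CPM divided by the kilobases of merged exons. All 59 members had a count, and their median was 3.13 RPKM, against 2.16 RPKM for the 17663 protein-coding genes with a count. The 44 detected members had a median of 6.88 RPKM and the 12148 detected protein-coding genes one of 5.85 RPKM, and 24 members lay above 5.85 RPKM. The family spanned a wide range, with means from 0.000857 RPKM for Rab27b to 117 RPKM for Rab1a.

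A few genes held most of the family's transcripts. Rab1a alone made up 18.5% of the summed Rab RPKM in KO1 and 15.5% in KO2. The 5 highest genes of each library held 51.6% in KO1 and 50.1% in KO2, and the 10 highest 71.5% in KO1 and 70.4% in KO2. By role, genes of the endoplasmic reticulum (ER) and Golgi group held 37.8% ± 2.25 of the summed Rab RPKM (SD, n = 2). The group takes in Golgi members as well as those of the route between ER and Golgi. Genes of late endosomes, lysosomes and autophagy held 21.8% ± 0.123, early endosome genes 15.3% ± 1.33, recycling endosome genes 12.3% ± 0.695 and exocytosis genes 9.79% ± 0.281. The remaining 5 genes, among them ciliary members and those of the ubiquitin ligase adaptor type, held 2.98% ± 0.383. Roles were assigned to each gene by its best known compartment, and many Rab proteins act at more than 1.

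**Figure D1:**
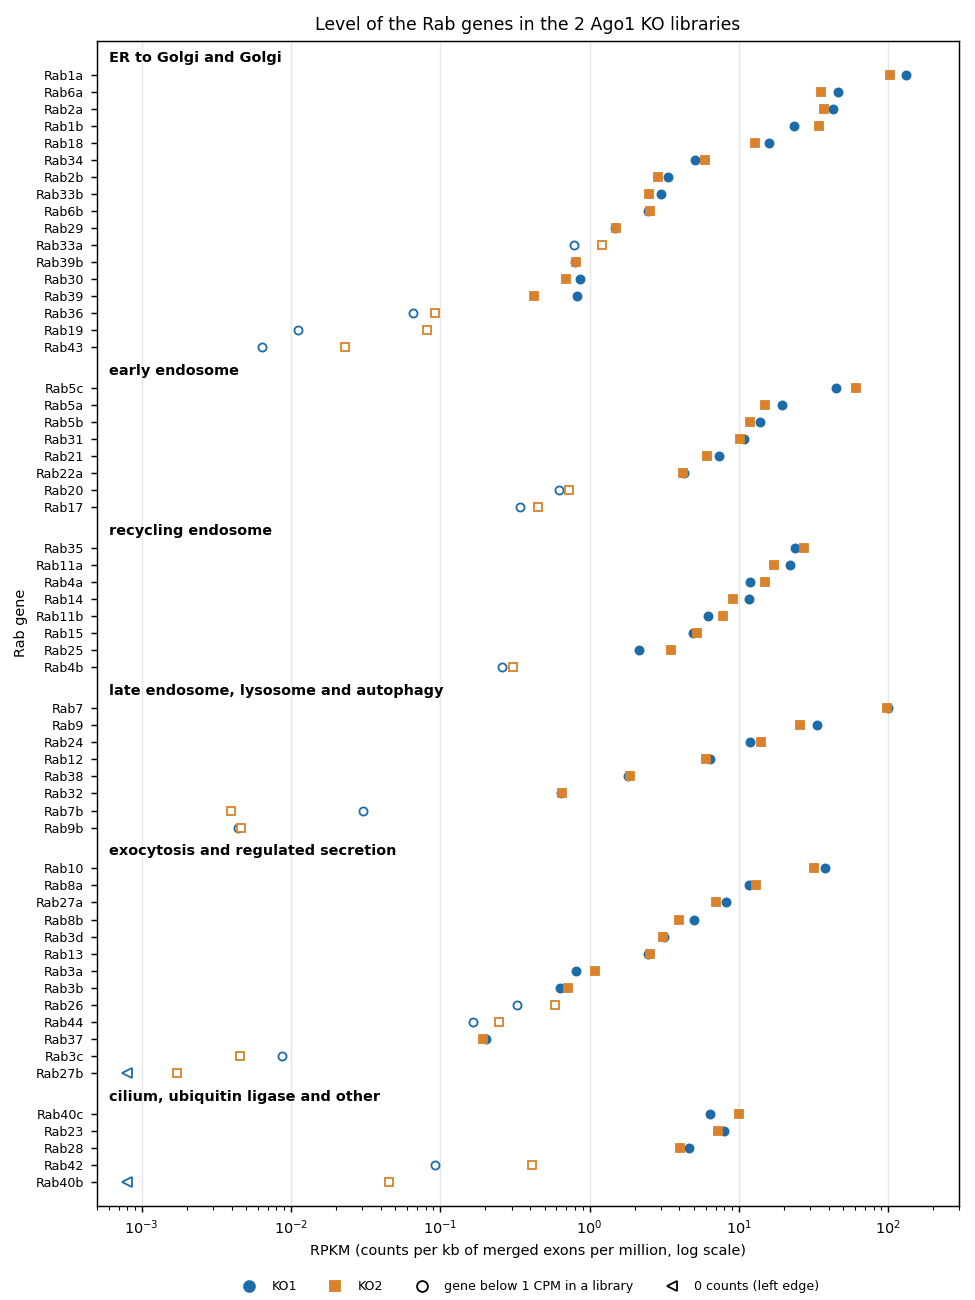
RPKM (log scale) of each of the 59 Rab genes in KO1 (circles) and KO2 (squares), grouped by role and sorted by mean; open symbols are genes below 1 CPM in a library and triangles at the left edge are counts of 0. Each role group spans a wide range and holds open symbols, mostly towards its lower end, and Rab1a and Rab7 lie furthest to the right.

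ER and Golgi members held the largest share. Rab1a, which controls transport from the ER to the Golgi, had 131 RPKM in KO1 and 104 RPKM in KO2 (28211 counts in KO1, 21484 in KO2). The gene (ENSMUSG00000020149) lies on the plus strand of chromosome 11 from 20201432 to 20226856 in GRCm38, and its mean of 117 ± 19.2 RPKM (SD, n = 2) ranked 339th among the detected protein-coding genes. Its paralog Rab1b, with the same role, had 23.4 RPKM in KO1 and 34.7 RPKM in KO2. Rab6a, which acts in retrograde and intra-Golgi transport, had 46.4 RPKM in KO1 and 35.6 RPKM in KO2. Rab2a, needed between the ER-Golgi intermediate compartment and the Golgi, had 42.8 RPKM in KO1 and 37.0 RPKM in KO2. Rab6a was the higher of the pair in KO1 and Rab2a in KO2, so their order is not settled by these data. Rab18, known for ER and lipid droplet contacts, followed at 14.3 ± 2.17 RPKM.

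The lower ER and Golgi members ran from Rab34 at 5.53 ± 0.573 RPKM, a Golgi Rab also needed for primary cilia, through Rab2b, Rab33b, Rab6b, Rab29, Rab39b and Rab30 to Rab39 at 0.621 ± 0.278 RPKM. Thus 13 of 17 members of this group were detected. Rab33a, Rab36, Rab19 and Rab43 were not. Rab33a, on the X chromosome, stood next to the threshold at 0.915 CPM for KO1 and 1.41 CPM for KO2. Rab19 had 1 count in KO1 and 7 in KO2. Rab43 had 2 counts in KO1 and 7 in KO2, but 75.4% of its exon bases lie under the predicted gene Gm45140 on the same strand, which itself had 1 count in KO1 and 3 in KO2.

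Reads that fall on 2 genes of the same strand can be left uncounted, depending on the counting program. For this table, counts per kb were summed over both libraries. Their median was 0 over the 422 protein-coding genes with 50% or more of their exon bases under another gene of the same strand. Over 15430 protein-coding genes without overlap it was 41.2 counts per kb. Among the Rab genes such an overlap concerned Rab43 and Rab4b. Whether genes of this kind are low through uncounted reads or through low transcription was not tested, so these low values are uncertain. Where such an overlap was on the opposite strand alone, the median over 185 genes was 27.1 counts per kb. Rab24 has 62.4% of its exon bases opposite Prelid1 and Rab2b 64.0% opposite Tox4 and a predicted gene. If strand was ignored, reads of these overlaps could be left uncounted or reads of the partners could enter, depending on the counting program. Which of these applies was not tested.

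In the early endosome group, the Rab5 genes led. Rab5 drives fusion of endocytic vesicles and early endosomes. Rab5c, on chromosome 11 from 100715009 to 100738215, had 44.7 RPKM in KO1 and 60.5 RPKM in KO2. Rab5a had 19.6 RPKM in KO1 and 14.9 RPKM in KO2, and Rab5b 13.8 RPKM in KO1 and 11.9 RPKM in KO2. Rab5c was thus the highest of the 3 in each library, while Rab5a and Rab5b lay closer together. Rab31 and Rab22a, relatives that act between endosomes and the trans-Golgi network, were at 10.5 ± 0.498 and 4.27 ± 0.0563 RPKM, and Rab21, involved in integrin endocytosis, at 6.73 ± 0.865 RPKM. Rab20 and Rab17 were the 2 of 8 members not detected. Rab20, a phagosomal Rab, stood at 0.862 CPM in KO1 and 1.01 CPM in KO2. Rab17, known from transcytosis in polarised epithelia, had the lowest level of the group, 0.686 CPM in KO1 against 0.897 CPM in KO2.

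Recycling endosome genes were detected in 7 of 8 cases. Rab35, which returns receptors from endosomes to the plasma membrane, was highest at 23.7 RPKM in KO1 and 27.3 RPKM in KO2. Rab11a, the general marker of recycling endosomes, had 22.1 RPKM in KO1 and 17.1 RPKM in KO2, and Rab4a, of the fast recycling route, 12.0 RPKM in KO1 and 14.9 RPKM in KO2. Rab14 was at 10.5 ± 1.83 RPKM by merged exons, which span 13589 bases, but at 28.4 ± 4.96 RPKM by its longest transcript of 5003 bases, so its place depends on the length used. Rab11b and Rab15 had 7.02 ± 1.10 and 5.12 ± 0.221 RPKM. Rab25, the epithelial member of the Rab11 branch, was the lowest detected of the group with 2.15 RPKM in KO1 and 3.51 RPKM in KO2. Rab4b had 29 counts in KO1 and 33 in KO2, with 65.0% of its exon bases under the predicted gene Gm21983 and a microRNA gene on the same strand. Gm21983 had 0 counts in both libraries.

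Rab7, the Rab of late endosomes and lysosomes, was the second highest member. It had 99.4 RPKM in KO1 and 98.6 RPKM in KO2 (14735 counts in KO1, 14058 in KO2), a mean of 99.0 ± 0.557 RPKM. The gene (ENSMUSG00000079477) lies on the minus strand of chromosome 6 from 87999106 to 88045270. By RPKM the libraries lay closer for Rab7 than for Rab1a. This no longer held after the correction for GC content given below. The corrected log2 ratio of KO1 over KO2 was -0.04 for Rab7 and 0.03 for Rab1a. Rab9, which returns receptors from late endosomes to the Golgi and is X-linked, had 33.6 RPKM in KO1 and 25.5 RPKM in KO2. Rab24, linked to autophagy, had 11.8 RPKM in KO1 and 14.2 RPKM in KO2, and Rab12, linked to delivery from recycling endosomes to lysosomes, was at 6.21 ± 0.238 RPKM. Rab38 and Rab32, known for building melanosomes and other lysosome-related organelles, were detected at 1.84 ± 0.0266 and 0.648 ± 0.0125 RPKM. Beside them, 2 of 4 melanocyte markers were detected, Pmel and Mlana, while Tyr had 0 counts and Dct at most 2 in a library, and the list summed to 18.1 CPM in KO1 and 21.6 CPM in KO2. The part of such cells in these values was not tested. Rab7b, with 8 counts in KO1 and 1 in KO2, and Rab9b, with 1 in each, were not detected.

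The exocytosis group was led by members of constitutive transport. Rab10, of basolateral and glucose transporter traffic, had 37.9 RPKM in KO1 and 31.7 RPKM in KO2. Rab8a, which carries vesicles to the plasma membrane and cilium, had 3095 counts in KO1 against 3332 in KO2, a mean of 12.3 ± 0.984 RPKM, and its paralog Rab8b 4.99 RPKM in KO1 and 3.95 RPKM in KO2. Rab13, a Rab of epithelial junctions, was at 2.49 ± 0.0413 RPKM. Rab27a, which docks secretory lysosomes, melanosomes and exosome-bearing organelles, was also present, with 8.22 RPKM in KO1 and 7.06 RPKM in KO2.

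Most genes of regulated secretion were lower than Rab10, Rab8a and Rab27a. Of the Rab3 genes, which act at synaptic and endocrine vesicles, Rab3d was highest at 3.13 ± 0.0165 RPKM, Rab3a had 0.814 RPKM in KO1 and 1.09 RPKM in KO2, and Rab3b 0.634 RPKM in KO1 and 0.722 RPKM in KO2. Rab3c had 6 counts in KO1 and 3 in KO2. Of 4 neuron markers 2 were detected, and the list summed to 456 CPM in KO1 and 463 CPM in KO2, of which Stmn2 made up 453 CPM in KO1 and 460 CPM in KO2. Snap25 had 10 counts in KO1 against 7 in KO2. Rab37, of mast cell granules, lay just inside the detection threshold at 1.07 CPM for KO1 and 1.02 CPM for KO2, and of 3 blood markers Kit was detected and Cpa3, of mast cells, had 0 counts. Rab26 and Rab44 lay just outside it, Rab26 at 0.933 CPM for KO1 and 1.67 CPM for KO2 and Rab44 at 0.845 CPM for KO1 and 1.24 CPM for KO2. Rab27b had 0 counts in KO1 and 1 in KO2, both below the floor that 3 counts set, 0.0528 CPM in KO1 and 0.0549 CPM in KO2. Such floors and all intervals here cover counting error only.

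The remaining members include Rab23, a negative regulator of Hedgehog signalling linked to cilia, at 7.98 RPKM in KO1 and 7.29 RPKM in KO2. Rab28, a farnesylated ciliary Rab, was at 4.64 RPKM in KO1 and 4.02 RPKM in KO2. Rab40c, whose protein carries a box that recruits a ubiquitin ligase, had 1134 counts in KO1 against 1696 in KO2, a mean of 8.24 ± 2.53 RPKM. By the longest transcript Rab23 was at 14.4 ± 0.924 RPKM and above Rab40c at 8.79 ± 2.70 RPKM, so their order depends on the length used. In all, 10 members had merged exons more than 1.5 times the longest transcript. Its paralog Rab40b had 0 counts in KO1 and 5 in KO2, while Rab42 stood at 4 counts in KO1 against 17 in KO2. In all, 15 members were not detected. For 4 of them, Rab20, Rab26, Rab33a and Rab44, KO2 alone reached 1 CPM, and 11 were below it in both libraries. A total of 7 members had fewer than 10 counts over both libraries, which at this depth does not show that they are silent.

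Paralogs of a subfamily were seldom transcribed evenly. In 16 subfamilies of 2 to 4 genes, the leading paralog held from 57.6% to 99.99% of the summed RPKM, and in 7 it held more than 90%. These were Rab2a, Rab4a, Rab6a, Rab7, Rab9, Rab27a and Rab40c, Rab4a with the overlap at Rab4b noted above. Rab1a held 84.8% of the Rab1 RPKM in KO1 and 74.9% in KO2. Rab5c held 57.2% of the Rab5 RPKM in KO1 and 69.3% in KO2. In KO1 Rab5a had 5868 counts against 5576 for Rab5c, so the lead of Rab5c there rests on the length scaling. Rab11a held 72.5% of the Rab11 and Rab25 RPKM in KO1 and 60.3% in KO2. Rab31 led its pair with Rab22a at 71.1% ± 0.702, and Rab38 its pair with Rab32 at 73.9% ± 0.0919. The leader was the same in KO1 and KO2 for 15 of 16 subfamilies. The exception was Rab39, where Rab39 held 50.5% in KO1 and 34.3% in KO2.

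The shares of Rab1, Rab5 and Rab11 genes differed between the libraries, and the genes of each of these subfamilies differ in GC content. The GC content of the longest transcript was 42.0% for Rab1a and 58.9% for Rab1b, 46.7% for Rab5a, 49.1% for Rab5b and 54.7% for Rab5c, and 39.5% for Rab11a, 48.1% for Rab11b and 55.7% for Rab25. In these subfamilies the member richest in GC had a smaller share in KO1 than in KO2. So had Rab3a, Rab6b, Rab8a, Rab32 and Rab33a, each the richest of its subfamily. The richest members Rab2b, Rab4b, Rab7b, Rab9, Rab27a, Rab31, Rab39 and Rab40c instead had the larger share in KO1. Of these, Rab39, at 41.2% GC against 40.0% for Rab39b, differed most between the libraries, with the shares given above. Whether GC content moved the shares was not tested. Reads with several matches could blur paralogs, and how they were counted is not known here. The coding sequences of paralogs were 62.1% to 78.5% identical, and the longest run of identical coding bases between any 2 was 38, in Rab1a and Rab1b. Untranslated and pseudogene sequence was not compared.

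**Figure D2:**
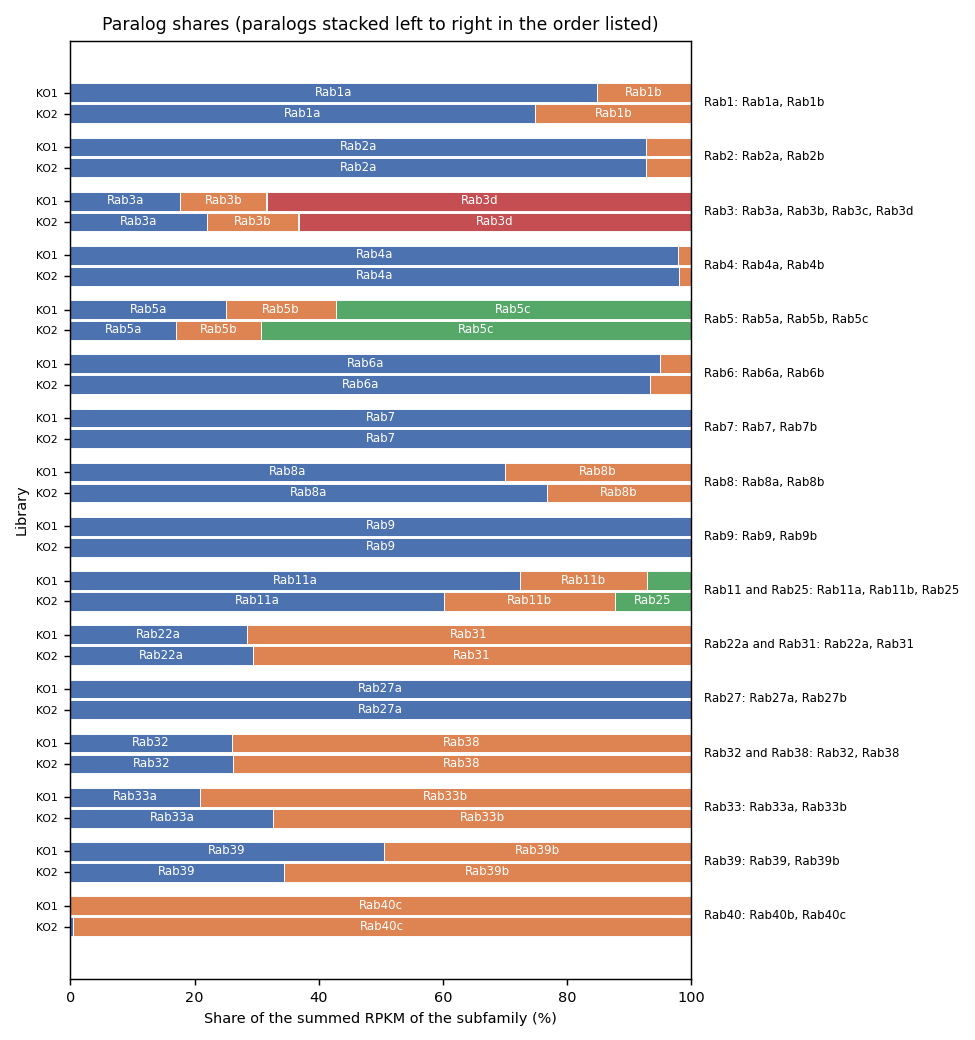
Share (%) of each paralog in the summed RPKM of its subfamily, with KO1 above KO2, paralogs stacked from left to right in the order listed. Rab7, Rab9, Rab27a and Rab40c fill nearly the whole bar, whereas the Rab3, Rab5, Rab8, Rab11, Rab33 and Rab39 bars are among those divided.

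By coding end, the 15 members ending in 2 adjacent cysteine codons held 43.9% ± 1.85 of the summed Rab RPKM, of which Rab1a was the largest part. The 20 with parted cysteine codons, led by Rab7, held 27.6% ± 0.159, although their median was 0.977 RPKM and 13 were detected. The 15 with adjacent cysteine codons further inside held 20.4% ± 1.73 and the 9 with a lone cysteine codon 8.10% ± 0.273. In the last group 8 of 9 were detected, Rab40b being the exception, with a highest level of 14.3 RPKM for Rab18. The classes are a description, and no difference between them was tested.

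Promoter sequence was examined because CpG-rich start sites are typical of widely expressed genes. RefSeq promoters of GRCm38.p6, 250 bases before to 50 bases after the start, were found for 48 of the 59 members. The highest member, Rab1a, and Rab19, which was not detected, are shown as examples, with CG dinucleotides in capitals.
Rab1a, chr11:20201162-20201461, plus strand: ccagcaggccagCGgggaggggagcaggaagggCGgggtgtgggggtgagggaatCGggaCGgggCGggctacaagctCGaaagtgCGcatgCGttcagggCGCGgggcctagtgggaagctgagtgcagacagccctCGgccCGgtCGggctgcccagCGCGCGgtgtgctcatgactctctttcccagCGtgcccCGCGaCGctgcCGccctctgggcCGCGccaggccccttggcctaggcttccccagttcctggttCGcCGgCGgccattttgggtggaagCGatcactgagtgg
Rab19, chr6:39381103-39381402, plus strand: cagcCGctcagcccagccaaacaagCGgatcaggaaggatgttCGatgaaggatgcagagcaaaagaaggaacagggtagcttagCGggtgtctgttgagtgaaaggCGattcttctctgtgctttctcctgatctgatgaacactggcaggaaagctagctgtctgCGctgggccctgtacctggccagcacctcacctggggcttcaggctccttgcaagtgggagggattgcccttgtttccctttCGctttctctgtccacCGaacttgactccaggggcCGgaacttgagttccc
The Rab1a window holds 27 CG dinucleotides and the Rab19 window 9. The ratio of observed CG dinucleotides to those expected from C and G content had a median of 0.746 over 48 Rab promoters. The median was 0.576 over 17492 protein-coding genes, with the first promoter of each taken. The ratio was at least 0.6 in 35 of 48 Rab promoters (72.9%), against 48.3% of those genes. Those genes were taken whether detected or not, whereas 38 of the 48 Rab genes were detected. Whether the difference remains among detected genes alone was not tested. Among the members the ratio was at least 0.6 in 31 of 38 detected genes and in 4 of 10 that were not. Its median was 0.769 in detected genes and 0.574 in the others. Exceptions ran both ways. Rab9 at 29.5 RPKM and Rab25 at 2.83 RPKM had ratios of 0.425 and 0.371, while Rab43, with the overlap given above, had 0.829 and Rab40b 0.688. Across the 48 genes the Spearman correlation of the ratio with mean RPKM was 0.431 (n = 48). The genes share both libraries and are not independent replicates, so this is a description. Neither this correlation nor the split by detection was computed over all protein-coding genes. Neither can therefore be called particular to Rab genes.

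**Figure D3:**
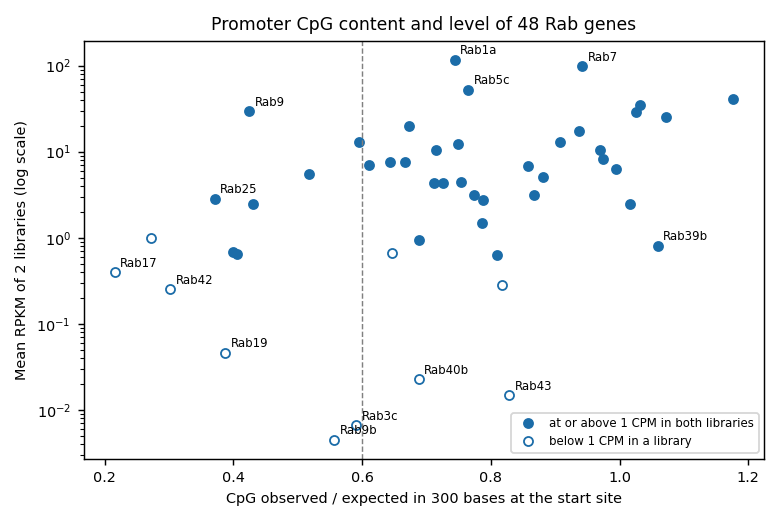
Mean RPKM (log scale) of 48 Rab genes against the CpG observed to expected ratio of the 300 bases at their start site; filled points were at or above 1 CPM in both libraries, and the dashed line marks a ratio of 0.6. Of the 10 open points 6 lie left of the line, and Rab9 is the highest point on that side.

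For each gene the ratio of scaled counts, KO1 over KO2, was taken with a 95% exact conditional binomial interval. This compares 2 libraries of 1 group and carries no replicate check. Of 51 members with a summed count of at least 50, 0 had an interval wholly beyond 2-fold, against 165 of 15619 genes of the table (1.06%). At 1.5-fold the numbers were 0 of 51 members and 1031 genes (6.6%). The interval lay off a ratio of 1 for 34 of 51 members (66.7%) and 65.5% of all genes, a like share. A total of 20 members (39.2%) were higher in KO1, against 31.2% of all genes, and 14 (27.5%) in KO2, against 34.3%. The median log2 ratio was -0.02 for the members and -0.01 for all genes. Without regard to sign the median was 0.26 for the members and 0.28 for all genes.

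Rab39, a Golgi-associated Rab, had the largest ratio of KO1 over KO2, with 138 counts in KO1 and 69 in KO2. Its log2 ratio was 0.94 (95% interval 0.52 to 1.38), or 1.92-fold. Next in size, on the side of KO2, were low members. Rab26 had 53 counts in KO1 and 91 in KO2, a log2 ratio of -0.83 (-1.35 to -0.33), and Rab25 had 204 counts in KO1 against 321 in KO2, a log2 ratio of -0.71 (-0.97 to -0.45). Of the abundant members, Rab40c was 1.55-fold (1.44 to 1.68) and Rab1b 1.48-fold (1.41 to 1.55) higher in KO2, and Rab5a 1.32-fold (1.27 to 1.37) higher in KO1. Rab7, Rab3d, Rab6b, Rab13, Rab29 and Rab38 were among the members whose intervals included a ratio of 1.

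These ratios followed the GC content of the transcripts. Over the 51 members the Spearman correlation of GC content with the log2 ratio was -0.844, and over 15603 genes it was -0.811, as a description of genes that share both libraries. The 17 members lowest in GC, from 36.8% to 46.5%, had a median log2 ratio of 0.31, and 16 of them were higher in KO1. The 17 richest in GC, from 53.5% to 59.5%, had a median of -0.41, and 0 of them were higher in KO1. With the trend over all genes removed by a loess fit, the median was -0.0022 for the members lowest in GC and -0.041 for the richest. After this correction the interval lay off 1 for 21 of 51 members (41.2%), against 40.2% of genes. Of these, 13 (25.5%) were higher in KO1, against 20.4% of genes, and 8 (15.7%) in KO2, against 19.8%. The interval lay beyond 2-fold for 0 members, against 0.263% of genes.

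A few members changed place under the correction. Rab34, at 59.5% GC, had an uncorrected log2 ratio of -0.21 and a corrected one of 0.53 (0.38 to 0.68), and Rab1b -0.57 and 0.12 (0.06 to 0.19), so the direction between the libraries turned for both. Rab35 turned likewise, with -0.20 before and 0.11 (0.04 to 0.17) after, and Rab24 with -0.26 before and 0.16 (0.05 to 0.26) after. Rab28 turned the other way, with 0.21 before and -0.21 (-0.33 to -0.08) after. For Rab26 the corrected value was -0.39 (-0.92 to 0.10), an interval that includes a ratio of 1, and for Rab25 it was -0.28 (-0.54 to -0.02). Rab40c moved to -0.28 (-0.39 to -0.17). Rab39 stayed highest at 0.61 (0.19 to 1.06). Rab11b was the lowest of the abundant members at -0.40 (-0.48 to -0.32), beside Rab11a at 0.00 (-0.07 to 0.08). For Rab1a the corrected value was 0.03 (0.01 to 0.06) and for Rab5c -0.09 (-0.14 to -0.04). Some intervals that had included a ratio of 1 no longer did so. These were the intervals of Rab7 at -0.04 (-0.07 to -0.01) and Rab3d at 0.24 (0.09 to 0.39). The same held for Rab15 at 0.31 (0.20 to 0.42) and Rab39b at -0.37 (-0.70 to -0.04). Whether GC content itself or another property of the libraries moved the counts was not tested.

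**Figure D4:**
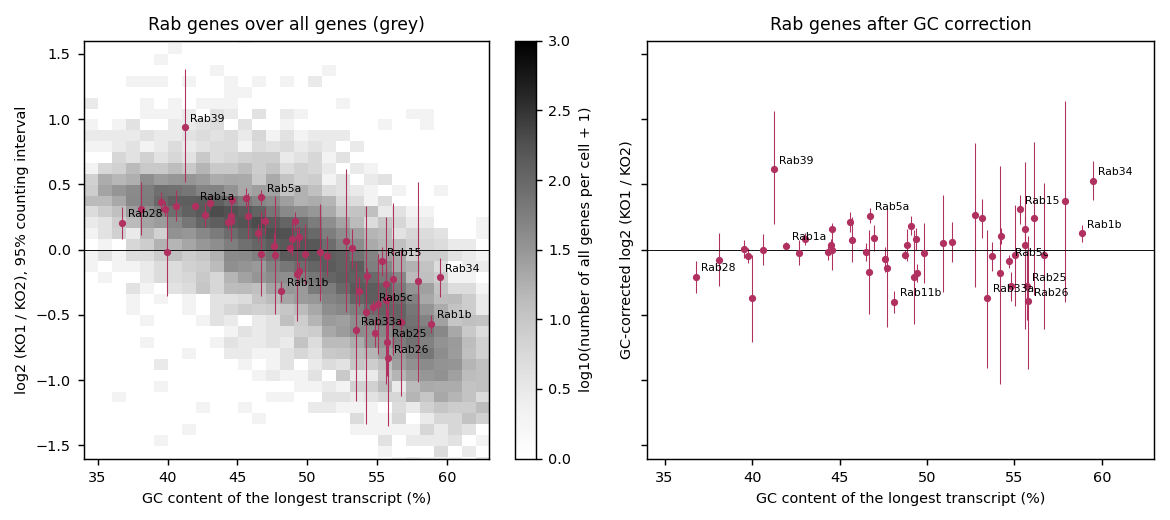
Log2 ratio of KO1 over KO2 for 51 Rab genes, with 95% counting intervals, against transcript GC content (%), left before and right after correction for the trend of all genes, whose density is grey. On the left the points fall with GC content along the grey band, and on the right they scatter about 0 with Rab39 and Rab34 highest.

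Genes that run the Rab cycle were taken from chosen lists, so their shares are a description. Of 129 listed, 119 were detected, against 12148 of 21976 protein-coding genes of the table (55.3%). All 8 genes of prenylation and GDP dissociation were, led by Rabggtb, the catalytic subunit of Rab geranylgeranyl transferase, with 110 RPKM in KO1 and 94.2 RPKM in KO2. The inhibitor gene Gdi2 had 68.0 RPKM in KO1 and 52.6 RPKM in KO2. Chml, an escort protein gene, was the lowest of the list with 1587 counts in KO1 against 1058 in KO2, a mean of 3.39 ± 0.869 RPKM.

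Of the exchange factors 32 of 34 were detected, with a median of 3.61 RPKM. By the mean of the libraries Ccz1, part of the factor that activates Rab7, led at 23.6 ± 2.14 RPKM. The DENN-domain genes Sbf1 at 15.4 ± 5.95 RPKM and Dennd2c at 14.1 ± 1.75 RPKM followed. Sbf1 had 11.2 RPKM in KO1 and 19.7 RPKM in KO2. Dennd2c had 15.3 RPKM in KO1 and 12.9 RPKM in KO2, so their order is not settled. Dennd2d was lowest by RPKM at 0.142 ± 0.009 RPKM. Of the GTPase-activating proteins 38 of 40 were detected, with a median of 3.35 RPKM. Tbc1d15, which acts on Rab7, led at 31.6 ± 5.71 RPKM, followed by Tbc1d13, which acts on Rab35, at 23.7 ± 3.14 RPKM and Tbc1d10b at 19.4 ± 5.32 RPKM. Tbc1d21 was lowest by RPKM with 9 counts in KO1 and 6 in KO2.

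Effectors were detected in 41 of 47 cases, with a median of 2.83 RPKM. By the mean of the libraries Uso1, a Golgi tether that binds Rab1, led at 29.2 ± 3.03 RPKM. Rabep1, a Rab5 effector, at 15.8 ± 3.42 RPKM and Plin3, a partner of Rab9, at 14.2 ± 3.47 RPKM followed. Plin3 was above Rabep1 in KO2, with 16.7 against 13.4 RPKM. In KO1 it had 11.8 RPKM and was also below another effector, so these places are not settled. Of the list, 6 were not detected. Mlph, which links Rab27a to a myosin on melanosomes, was lowest by RPKM with 8 counts in each library, while Rab27a itself was detected, as given above.

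**Figure D5:**
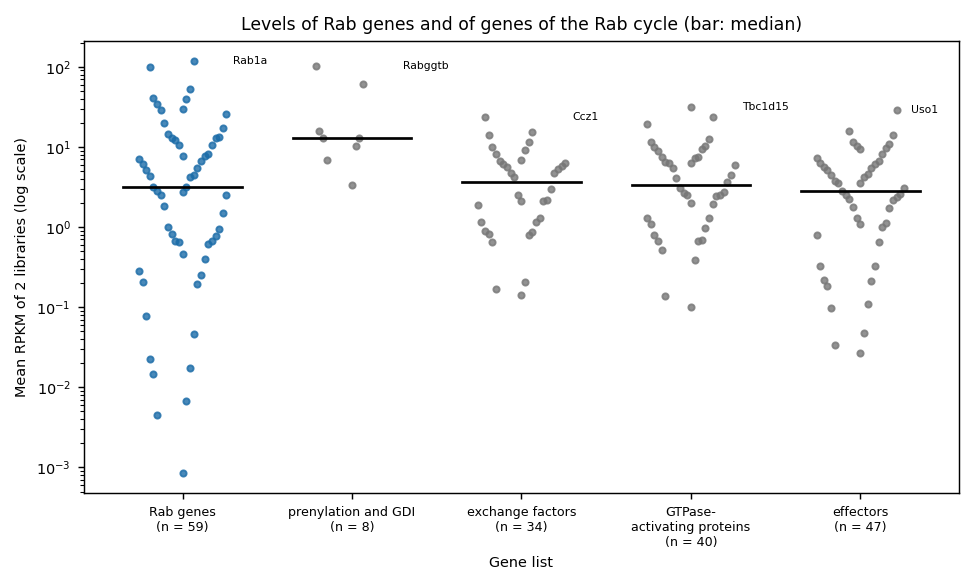
Mean RPKM (log scale) of 59 Rab genes and of the genes of 4 lists of the Rab cycle, each point a gene and each bar the median of its list. The medians of the exchange factors, the GTPase-activating proteins and the effectors lie close to that of the Rab genes, whose lowest members reach further down.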

How the data were processed

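The authors deposited a table of whole-number read counts per Ensembl gene for 2 Ago1 KO libraries, not normalized. Per the submitters' processing notes the genome was GRCm38. No source used here gives the aligner, the counting program or its strand setting. Symbols, exons and GC content came from GENCODE M21, which held 55240 of 55421 identifiers. Counts were scaled with TMM factors of edgeR 4.0.16 in R 4.3.3 to CPM and divided by merged exon length to RPKM. Ratios were computed with scipy 1.17.1 and a prior count of 0.5, and the loess correction (span 0.3) with statsmodels 0.14.6. The ratio rule and the correction were tested on simulated data. Overlaps used bedtools 2.31.1 and alignments biopython 1.88. With 1 group there was no quasi-likelihood test and no p-value. Members, roles, lists and alternatives were chosen with earlier results of these data known. Every member may be named, and of each list of the Rab cycle the 3 highest and the lowest. A gene and a sequence that these rules would show are not reported here. The alternatives were other scalings, thresholds and lengths and each library alone. A DESeq2 1.42.0 size factor was among the scalings.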

Additional observations from a re-analysis of the deposited data

How the results depend on the processing

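No paired analysis was possible because both libraries belong to 1 group. The number of detected Rab genes, 44, ran from 37 (at 1 RPKM) to 57 (any count in both libraries), and from 44 to 48 with each library alone. The median Rab level of 3.13 RPKM was 4.304 RPKM by the longest transcript, 6.88 RPKM over detected members and 10.8 as TPM, which follows from the length, the genes taken and the unit. With each library alone the median was 3.36 RPKM in KO1, the value of Rab2b, and 3.51 RPKM in KO2, the value of Rab25. The middle gene thus differed from Rab3d, the middle gene by the mean of the libraries. The count of 0 members beyond 2-fold was 0 under every alternative run. Over all genes, the 165 beyond 2-fold became 41 with the GC correction, 1031 at 1.5-fold and 24 at 3-fold. The sign of the median Rab log2 ratio, -0.02, is not settled, being 0.05 over members with 200 counts or more. With DESeq2 size factors it was 0.04, but these were 1 for both libraries and so left their difference in depth unscaled. By the mean of the libraries, all 16 leading paralogs led also by the longest transcript and without length scaling, with the share of Rab5c at 56.3% by the longest transcript and 44.3% without length scaling. In KO1 alone and without length scaling Rab5a, at 103 CPM, led Rab5c, at 98.1 CPM. Depth limits the 8 members with fewer than 50 counts in all.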
